A study of Mus musculus with 4 samples.

Results

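The transcripts of the mitochondrial respiratory chain were followed across sections of the mouse ovary, as 46 genes in 2 groups, those encoded by mitochondrial DNA and those encoded in the nucleus. The members were taken by symbol from the deposited tables, and all 46 of 46 were found among the 32285 genes there. The mitochondrially encoded group held 13 genes, which are all the protein-coding genes of the mouse mitochondrial genome. The nuclear group held 33 genes, 14 for subunits of complex I, 4 for complex II, 5 for complex III and 10 for complex IV, with Ndufa4 counted under complex IV, to which its protein belongs. Gene expression had been measured by Visium spatial transcriptomics, in which polyadenylated RNA leaving a frozen section is caught by an array of barcoded spots and counted as unique molecules (UMIs). The animals were outbred CD-1 females, naturally aged and without any treatment or engineered allele in the labels, with 4 young animals (3 to 4 months) and 4 aged ones (15 to 16 months). Each of 4 capture areas held 1 young and 1 aged section, numbered 1 to 4 here, so that both ages of a pair shared a library. Each animal was therefore seen in a single 10 µm section, and sections need not hold the same follicles, corpora lutea or attached tissue. The stage of the oestrous cycle is not given in the sources used here. Spots were assigned to an age from the side of the capture area that the labels name, so the ages of an area would be swapped if its image were rotated relative to them. Genes of the oocyte, granulosa and corpus luteum marker lists were all detected, and the corpus luteum list took 2.31 to 4.64% of UMIs of a section.

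The respiratory chain passes electrons from NADH through complex I, or from succinate through complex II, to ubiquinone, then through complex III and cytochrome c to complex IV, which reduces oxygen. Complexes I, III and IV pump protons across the inner mitochondrial membrane, and ATP synthase uses the gradient. Complex II is encoded in the nucleus alone, whereas the other complexes combine a few core subunits made inside mitochondria with many imported ones. Both strands of the mitochondrial genome are transcribed as long precursors that are cut into separate RNAs, most of which are polyadenylated, while the nuclear genes each have their own promoter. In the ovary, mitochondria are abundant in oocytes and in steroid-producing luteal and theca cells, in which the first step of steroid synthesis takes place on the inner mitochondrial membrane.

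The 8 sections held 257 to 762 spots and 2777948 to 21619232 UMIs, with medians of 8779 to 28120 UMIs per spot. Depth separated the ages, since the median spot held 14988 to 28120 UMIs in young and 8779 to 14928 in aged sections. Mitochondrially encoded genes gave 82315 to 213497 UMIs per section and the nuclear members 34737 to 392508. For these sums, counting error is small beside the spread between sections. For single members this was not checked. Few UMIs limit mt-Nd6, mt-Atp8 and mt-Nd4l. Nuclear members with a narrow range, such as Ndufa9 (highest section 1.21-fold the lowest), may vary little beyond counting error. A spot covers several cells, and fewer cells of a type cannot be told apart from less RNA per cell in any value below.

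The mitochondrial genes lie end to end on a small circular genome (chrM, GENCODE M21 on GRCm38), and some share bases, which bears on how their counts can be read. mt-Atp8, a small subunit of ATP synthase (chrM:7766-7969, plus strand), is 204 bases long and shares its last 43 bases with the start of mt-Atp6, which encodes the proton channel subunit (chrM:7927-8607). mt-Nd4l (chrM:9877-10173, plus strand), a membrane subunit of complex I, is 297 bases long and shares its last 7 bases with mt-Nd4 (chrM:10167-11544). Each of these gene pairs is carried by a single mature messenger RNA, so that the RNA ends with the second gene of the pair. mt-Nd6 (chrM:13552-14070) is the only member of the group on the minus strand, and 14 of its bases lie opposite the end of mt-Nd5. Whether the authors' counting used strand, and how it treated shared bases, is not given in the sources used here. The sequences of both short genes are shown with the shared bases in capitals, as read from the reference.
mt-Atp8: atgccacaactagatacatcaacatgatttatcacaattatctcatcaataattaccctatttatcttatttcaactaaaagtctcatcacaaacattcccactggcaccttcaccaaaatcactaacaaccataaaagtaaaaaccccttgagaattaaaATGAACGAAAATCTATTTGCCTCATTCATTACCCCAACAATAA
mt-Nd4l: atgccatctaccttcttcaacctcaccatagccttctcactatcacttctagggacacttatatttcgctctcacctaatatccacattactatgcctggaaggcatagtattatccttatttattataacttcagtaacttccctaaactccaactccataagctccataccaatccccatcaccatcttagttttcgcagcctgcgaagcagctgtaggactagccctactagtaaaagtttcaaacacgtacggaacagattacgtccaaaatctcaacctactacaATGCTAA

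Counts of the first gene of each pair, not divided by length, were low in every section. Per 1000 UMIs of mt-Atp6 there were 4.11, 2.36, 4.28 and 2.08 UMIs of mt-Atp8 in young sections 1 to 4 and 5.50, 3.77, 4.24 and 2.34 in aged sections 1 to 4. Per 1000 UMIs of mt-Nd4 there were 23.6, 17.5, 28.7 and 13.7 UMIs of mt-Nd4l in young and 29.3, 23.0, 18.0 and 17.8 in aged sections. mt-Nd6 gave 6 to 17 UMIs in a whole section and was seen in 2.17% of spots, against 99.0% for mt-Co1. Values of these 3 genes below rest on few molecules or on bases that a second gene also covers, and the part of the shared bases in them was not tested.

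For the nuclear members, promoter windows of 250 bases before to 50 after the gene's start (RefSeq, GRCm38.p6) were found for 24 of 33. The letters GCGCANGCG, bound by NRF1 (nuclear respiratory factor 1), stood on either strand in 25% of the 24 windows and in 7.03% of the windows of 27025 genes, overlapping matches included. CCGGAAG, a core bound by ETS factors such as GABP, stood in 25 and 9.93%, and AAGATGGCG, bound by YY1, in 8.33 and 1.64%. Any of the 3 stood in 12 of the 24 windows (50%) and in 16.5% of all. The windows of 2 complex IV genes that recur in the regions below are printed with matches in capitals, Cox6a1 (chr5:115348909-115349208, minus strand), with 3 NRF1 and 1 ETS match, and Cox5a (chr9:57520982-57521281, plus strand), in which none of these letters was found. A match is a run of letters and not evidence of binding, and an absent match says only that these letters are not in this window.
Cox6a1: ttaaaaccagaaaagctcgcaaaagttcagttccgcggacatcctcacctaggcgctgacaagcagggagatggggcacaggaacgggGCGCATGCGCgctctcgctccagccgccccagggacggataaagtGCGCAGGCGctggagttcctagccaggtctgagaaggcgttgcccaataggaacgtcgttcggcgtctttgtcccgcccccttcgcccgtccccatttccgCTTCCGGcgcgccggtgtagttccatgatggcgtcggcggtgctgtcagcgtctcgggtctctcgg
Cox5a: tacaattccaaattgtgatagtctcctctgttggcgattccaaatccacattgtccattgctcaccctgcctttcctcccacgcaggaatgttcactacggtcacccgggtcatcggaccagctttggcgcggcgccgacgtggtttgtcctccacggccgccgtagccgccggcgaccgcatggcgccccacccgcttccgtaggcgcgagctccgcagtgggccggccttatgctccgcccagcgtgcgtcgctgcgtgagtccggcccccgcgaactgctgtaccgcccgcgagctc

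Mitochondrially encoded transcripts took a larger share of UMIs in the aged than in the young section of every capture area, while the share of the nuclear members was alike in both ages, but no difference between ages passed its test. The 13 mitochondrially encoded genes took 1.88, 0.976, 1.10 and 0.597% of UMIs in young sections 1 to 4 and 2.53, 1.38, 2.96 and 1.31% in aged sections 1 to 4. The groups overlapped, since young section 1 lay above aged sections 2 and 4, and young section 4 was the lowest of all. The means were 1.14 ± 0.540% and 2.05 ± 0.826% (SD, n = 4 per age), and the mean log2 difference was 0.87, or 1.83-fold (exact permutation test over sections, two-sided, p = 0.143, adjusted over 7 measures 0.6). With 4 sections per age this test cannot give a p below 0.0286, so a measure alone could not pass after adjustment over 7. The 33 nuclear members took 1.58, 1.82, 1.54 and 1.58% in young and 1.54, 1.98, 1.25 and 1.75% in aged sections, with aged section 3 the lowest and aged section 2 the highest. Their means were 1.63 ± 0.126% and 1.63 ± 0.312% (SD, n = 4 per age; exact permutation test, adjusted p = 0.971). Mitochondrially encoded counts per nuclear count stood at 1.19, 0.537, 0.713 and 0.377 in young and 1.64, 0.697, 2.37 and 0.751 in aged sections, and the aged section was the higher in 4 of 4 areas (log2 difference 0.89, exact permutation test, adjusted p = 0.6).

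**Figure D1:**
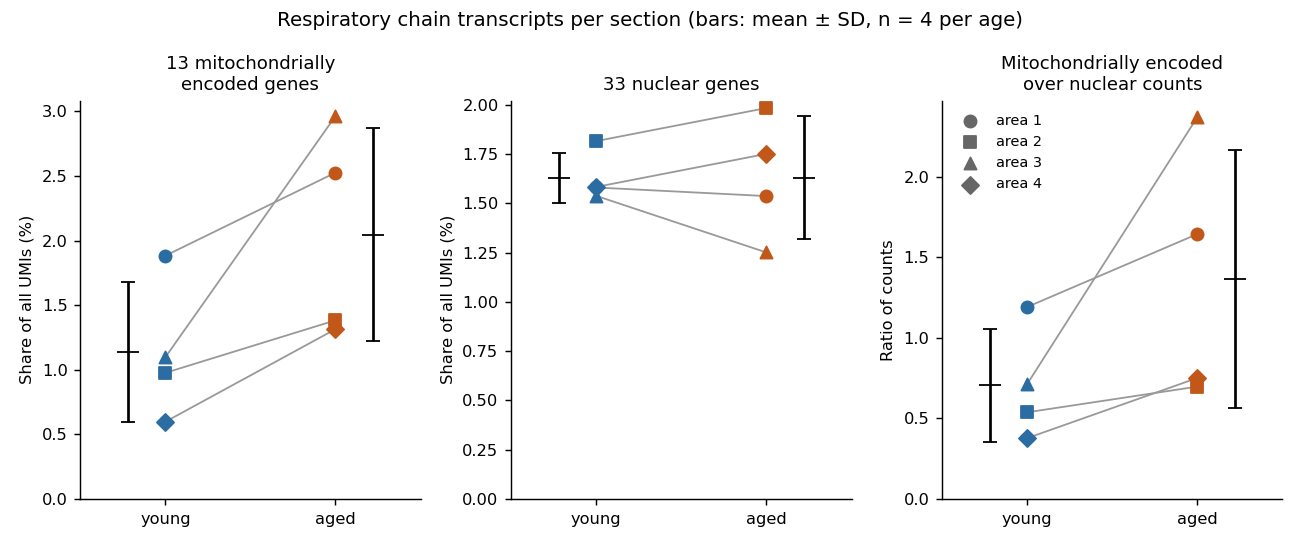
Share of all UMIs (%) taken by the 13 mitochondrially encoded genes (left) and the 33 nuclear genes (middle), and the ratio of their counts (right), with 1 symbol per section, a line joining the sections of a capture area, and the mean ± SD of each age beside the points. The line rises in all 4 areas on the left and right, while in the middle it rises in 2 and falls in the other 2.

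Taking the median spot in place of the sum over spots widened the difference of the mitochondrially encoded share to 1.44 on the log2 scale (exact permutation test, adjusted p = 0.4). The median spot held 0.891, 0.754, 0.560 and 0.337% in young and 2.40, 0.784, 3.86 and 0.947% in aged sections. The summed share lay above that of the median spot in 7 of 8 sections, and below it in aged section 3 alone.

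Within the mitochondrially encoded group every gene was higher in the aged section of all 4 areas, and for none did the young and aged sections separate completely. Levels in CPM are UMIs of a gene over all UMIs of the section, scaled to 1000000 UMIs. Fold changes are those of the edgeR fit with TMM scaling, aged over young. Their standard error (SE) was derived from the fit, as the size of the log2 fold change over the square root of its F statistic.

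Complex I takes 7 of its core membrane subunits from mitochondrial DNA. mt-Nd1 was at 832, 300.3, 463 and 249 CPM in young sections 1 to 4 and at 1212, 479, 1704 and 664 CPM in aged sections 1 to 4. mt-Nd2 was at 839, 319, 508 and 231 CPM in young sections 1 to 4 and at 1231, 503, 1766 and 536 CPM in aged sections 1 to 4. mt-Nd3 was counted at 121, 36.0, 87.2 and 48.3 CPM in young sections 1 to 4 and at 225, 84.9, 419 and 94.1 CPM in aged sections 1 to 4. Aged section 3 was the highest for all 3 genes and young sections 2 and 4 were the lowest, and young section 1 exceeded aged sections 2 and 4. Their log2 fold changes were 1.10 ± 0.45, 1.05 ± 0.47 and 1.45 ± 0.50 (SE), the last being the largest of the group. mt-Nd4 stood at 1221, 559, 696 and 381 CPM in young sections 1 to 4 and at 1719, 816, 2061 and 825 CPM in aged sections 1 to 4. mt-Nd4l stood at 28.8, 9.81, 20.0 and 5.21 CPM in young sections 1 to 4 and at 50.3, 18.7, 37.1 and 14.7 CPM in aged sections 1 to 4. mt-Nd5 stood at 111, 40.2, 85.8 and 29.0 CPM in young sections 1 to 4 and at 171, 84.2, 142 and 61.1 CPM in aged sections 1 to 4. For mt-Nd4 aged section 3 was again the highest, whereas for mt-Nd4l and mt-Nd5 it was aged section 1. These 3 genes had log2 fold changes of 0.90 ± 0.40, 0.92 ± 0.52 and 0.80 ± 0.43 (SE). mt-Nd6 was rare, at 1.32, 0.555, 1.13 and 0.984 CPM in young sections 1 to 4 and at 1.97, 0.631, 4.68 and 1.39 CPM in aged sections 1 to 4, with a log2 fold change of 0.98 ± 0.54 (SE).

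Complex IV, cytochrome c oxidase, has its catalytic core of 3 subunits from the same genome. mt-Co1, which carries the haem and copper centre, was at 4654, 2804, 2985 and 1431 CPM in young sections 1 to 4 and at 5949, 3474, 6737 and 3445 CPM in aged sections 1 to 4. mt-Co2 was at 1633, 657, 902 and 508 CPM in young sections 1 to 4 and at 2426, 1314, 2805 and 1129.6 CPM in aged sections 1 to 4. mt-Co3 was at 4368, 2423, 2451 and 1363 CPM in young sections 1 to 4 and at 5899, 3327, 6216 and 2911 CPM in aged sections 1 to 4. Young section 4 was the lowest and aged section 3 the highest for each of them. Log2 fold changes were 0.70 ± 0.39, 1.04 ± 0.41 and 0.77 ± 0.40 (SE). mt-Cytb, cytochrome b of complex III, was at 2883, 1547, 1442 and 916 CPM in young sections 1 to 4 and at 3156, 2041, 3562 and 2052 CPM in aged sections 1 to 4, and its log2 fold change of 0.65 ± 0.37 (SE) was the smallest of the group. mt-Atp6 was at 2125, 1060.3, 1323 and 809 CPM in young sections 1 to 4 and at 3197, 1675, 4160.3 and 1402 CPM in aged sections 1 to 4. mt-Atp8 was at 8.73, 2.50, 5.67 and 1.68 CPM in young sections 1 to 4 and at 17.6, 6.31, 17.6 and 3.28 CPM in aged sections 1 to 4. The log2 fold changes of these ATP synthase genes were 0.94 ± 0.40 and 1.24 ± 0.61 (SE), and aged sections 1 and 3 were the highest for both.

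In edgeR's quasi-likelihood test with Benjamini-Hochberg adjustment over all 14044 genes that passed the filter on low counts, among them all 46 members, 0 genes were called between ages (0%), and so no member was. At an unadjusted p under 0.05 in edgeR stood 392 genes, among them 4 members, mt-Nd1 (0.034), mt-Nd3 (0.0172), mt-Co2 (0.0308) and mt-Atp6 (0.0396). DESeq2 called 6 genes and no member, with 9 members at an unadjusted p under 0.05. The median log2 fold change was 0.94 over the 13 mitochondrially encoded genes, 0.0089 over the 33 nuclear members and 0.013 over all genes tested. The CPM of the ages did not overlap for 1.38% of all genes and for 0 of the 46 members. A CPM higher in the aged section of 4 of 4 areas was seen for 4.02% of all genes, for all 13 mitochondrially encoded and for none of the nuclear members. The reverse, lower in 4 of 4 areas, was seen for 6.69% of all genes and, at a like share, for 2 of 33 nuclear members, Ndufa9 and Ndufv1. For Ndufa9 the young and aged sections were nearly equal in area 1 (76.2 and 75.4 CPM) and area 2 (80.7 and 80.6 CPM). The 13 genes share precursor transcripts and are not independent of each other. With the capture area as a block, edgeR again called no gene, and 12 of the 13 mitochondrially encoded genes had an unadjusted p under 0.05. Without the block as many stood under 0.05 when young section 1 was left out, and none when aged section 3 or both sections of area 3 were. How many of all genes stood under 0.05 in the DESeq2, blocked and left-out fits was not counted.

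**Figure D2:**
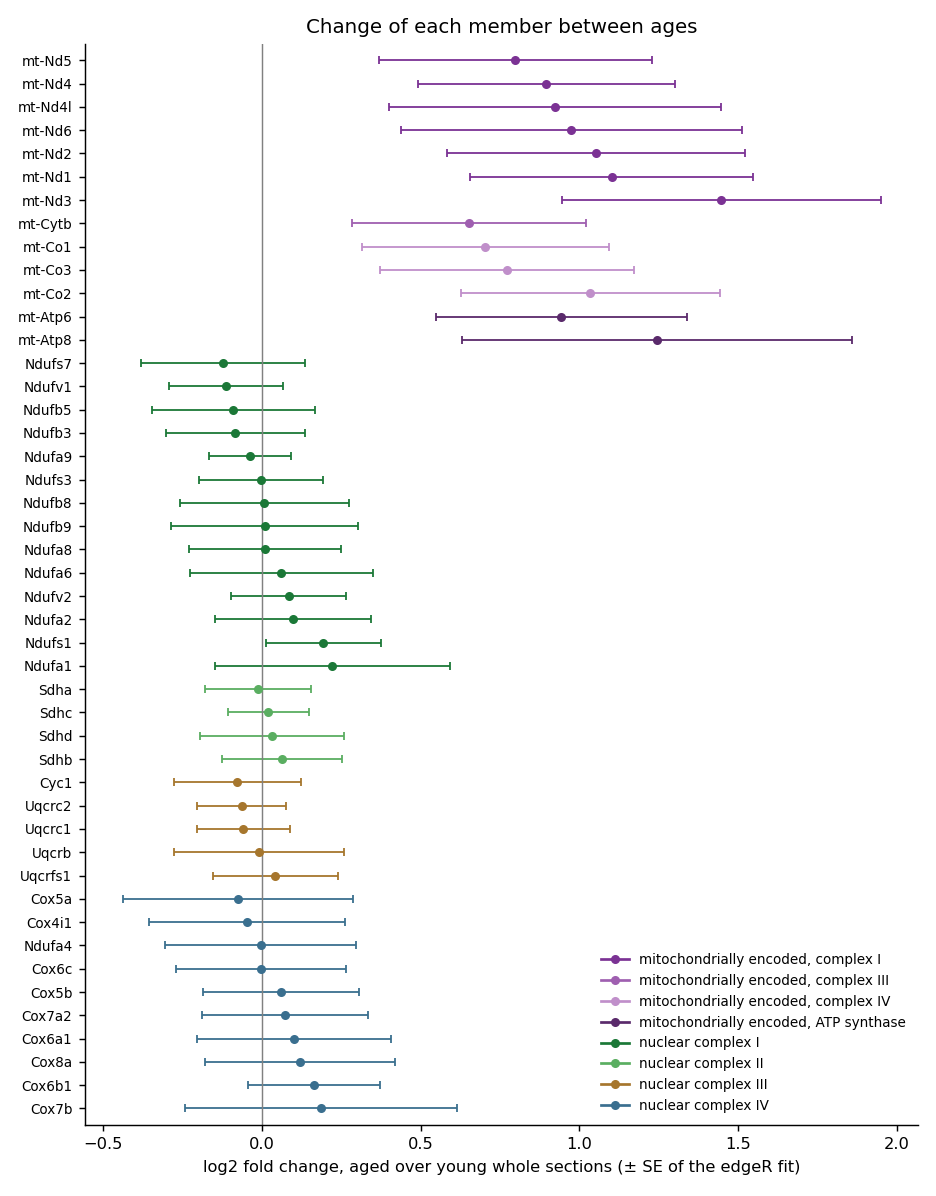
Log2 fold change, aged over young, of each of the 46 members in whole sections (points) with the SE derived from the edgeR fit (bars), grouped by genome and complex. The mitochondrially encoded genes lie between 0.65 and 1.45 and the nuclear ones between −0.12 and 0.22.

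As a percentage of all mitochondrially encoded counts, no gene passed the test between ages. mt-Co1 took 24.7, 28.7, 27.2 and 24.0% in young and 23.6, 25.1, 22.7 and 26.2% in aged sections, in order of area. mt-Co2 took 8.67, 6.73, 8.22 and 8.50% in young and 9.61, 9.51, 9.47 and 8.60% in aged sections, and here 9.29 ± 0.469% stood against 8.03 ± 0.887% (SD, n = 4 per age; exact permutation test, p = 0.0571, adjusted over 13 genes 0.743). That was the lowest p of the 13 genes, none of which passed. With 4 sections per age the test cannot give a p below 0.0286, so a gene changing alone could not pass after adjustment over 13. mt-Co3 took 23.3 ± 1.08 and 22.6 ± 1.36% of these counts, mt-Cytb 14.9 ± 1.20 and 13.7 ± 1.74%, and mt-Atp6 11.9 ± 1.18 and 12.4 ± 1.39% (young and aged, SD, n = 4 per age). mt-Nd3 gave 26.0, 12.9, 29.2 and 33.8 UMIs per 1000 of mt-Co1 in young and 37.8, 24.4, 62.3 and 27.3 in aged sections, the extremes being young section 2 and aged section 3.

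The nuclear members kept a narrow range across the same sections. The highest section exceeded the lowest by a median of 1.58-fold over the 33 genes, against 5.91-fold over the 13 mitochondrially encoded ones. In edgeR 18 of the 33 were higher and 15 lower in aged sections, none at an unadjusted p under 0.05 and none called. Complex I members had log2 fold changes of −0.12 to 0.22, those of complex II −0.012 to 0.063, of complex III −0.077 to 0.042 and of complex IV −0.076 to 0.19. For each complex the genes with the largest and the smallest log2 fold change are given here in every section.

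In complex I, Ndufa1 was at 289, 293, 463 and 424 CPM in young sections 1 to 4 and at 309, 361, 228 and 743 CPM in aged sections 1 to 4. Ndufs7 was at 276, 287, 286 and 272 CPM in young sections 1 to 4 and at 233, 332, 175 and 255 CPM in aged sections 1 to 4. Ndufa1, an X-linked accessory subunit, had the largest value of all nuclear members (0.22 ± 0.37, SE), with aged section 4 the highest, and was at −0.24 without that section. Ndufs7, a core subunit that holds an iron-sulphur cluster, had the smallest (−0.12 ± 0.26), with aged section 3 the lowest. In complex II, Sdhb was at 244, 242, 285 and 277 CPM in young sections 1 to 4 and at 303, 284, 222 and 258 CPM in aged sections 1 to 4. Sdha was at 185, 193, 222 and 188 CPM in young sections 1 to 4 and at 197, 183, 170.3 and 216 CPM in aged sections 1 to 4. Both sets overlapped throughout, with log2 fold changes of 0.063 ± 0.19 for Sdhb, the iron-sulphur subunit, and −0.012 ± 0.17 for Sdha, the flavoprotein that oxidises succinate (SE). In complex III, Uqcrfs1 was at 225, 251, 218 and 229 CPM in young sections 1 to 4 and at 261, 226, 197 and 254 CPM in aged sections 1 to 4. Cyc1 was at 244, 249, 222 and 275 CPM in young sections 1 to 4 and at 266, 239, 197 and 221 CPM in aged sections 1 to 4. Aged section 3 was the lowest for both Uqcrfs1, the Rieske iron-sulphur protein (0.042 ± 0.20), and Cyc1, cytochrome c1 (−0.077 ± 0.20). In complex IV, Cox7b was at 623, 1007, 350 and 417 CPM in young sections 1 to 4 and at 419.9, 840.4, 589 and 891 CPM in aged sections 1 to 4. Cox5a was at 479, 604, 354 and 422 CPM in young sections 1 to 4 and at 442, 594, 231 and 449.8 CPM in aged sections 1 to 4. Cox7b, another X-linked subunit, varied 2.88-fold among sections with both extremes in young animals (0.19 ± 0.43), and Cox5a was lowest in aged section 3 and highest in young section 2 (−0.076 ± 0.36).

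The other genes of the pathway, from lists that also hold the rest of the subunits, had fold changes as small for the most part, and edgeR called none of them. Higher in aged sections were 16 of 22 of the remaining complex I genes (median log2 0.066), 6 of 7 of those of complexes III and IV (0.090) and 13 of 18 of nuclear ATP synthase (0.032). Of assembly factors it was 21 of 37 tested (median 0.042), of genes that maintain and express mitochondrial DNA 12 of 25 tested (−0.0037) and of citric acid cycle genes 7 of 13 tested (0.0037). Regulators of mitochondrial biogenesis were higher in 5 of 9 tested, with Ppargc1a and Ppargc1b, coactivators of that programme, below the filter, and genes of mitophagy and quality control in 4 of 15 tested. The lowest and highest of the other complex I genes were Ndufab1 (−0.087 ± 0.22, SE throughout) and Ndufs4 (0.30 ± 0.20), those of complexes III and IV Cox7a2l (−0.21 ± 0.33) and Uqcr10 (0.15 ± 0.31), and those of ATP synthase Atpif1, its inhibitor (−0.15 ± 0.26), and Atp5e (0.14 ± 0.21). Among assembly factors these were Ndufaf2, for complex I (−0.22 ± 0.24), and Lyrm7, for complex III (0.38 ± 0.82), and in the citric acid cycle Sucla2 (−0.19 ± 0.17) and Fh1, fumarase (0.20 ± 0.18). Polg2, the accessory subunit of the mitochondrial DNA polymerase, was the lowest of the genes that maintain and express mitochondrial DNA (−0.39 ± 0.19), and Pnpt1, which degrades RNA in mitochondria, the highest (0.16 ± 0.23). The regulators ran from Pprc1, a coactivator of biogenesis (−0.34 ± 0.21), to Tfeb, a transcription factor of lysosome genes (0.19 ± 0.21), and the mitophagy list from Sqstm1, an autophagy adaptor (−0.28 ± 0.20), to Fundc1, a mitophagy receptor (0.34 ± 0.15). Among these extremes, Fundc1 alone had an unadjusted p under 0.05 in edgeR. Subunit isoforms known from particular tissues or conditions passed the filter in 5 of 9 cases, from Cox6a2, of heart and skeletal muscle (−1.03 ± 0.86), to Cox7a1 (0.42 ± 0.29).

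Within a section the mitochondrially encoded share varied far more from spot to spot than the nuclear share. The 95th percentile of spots exceeded the 5th by 4.66 to 20.0-fold for the mitochondrially encoded share and by 1.39 to 2.43-fold for the nuclear share, over the 8 sections. The SD among spots within sections was 1.16 and 0.264 on the log2 scale, and differences between sections held 29.2 and 35.5% of the variance. Spots with more mitochondrially encoded than nuclear counts made up 30.6, 9.32, 23.4 and 11.2% of young sections 1 to 4 and 65.9, 29.4, 81.3 and 26.2% of aged sections. Neighbouring spots were alike, with Moran's I, a spatial autocorrelation, of 0.626 to 0.878 for the mitochondrially encoded and 0.240 to 0.782 for the nuclear share. The genes of the first group went together from spot to spot, with a median Spearman rho between pairs of 10 genes of 0.53 to 0.89 per section, while pairs of nuclear members had 0.042 to 0.15 and mixed pairs −0.095 to 0.070. These are descriptions across spots of 1 library each, and nuclear genes with fewer UMIs per spot carry more counting noise.

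The relation to depth differed between sections. The rho between mitochondrially encoded share and UMIs per spot was 0.56, 0.34, 0.19 and 0.072 in young sections 1 to 4 and −0.18, −0.19, −0.62 and 0.0058 in aged sections 1 to 4. In aged section 3 the third of spots with the fewest UMIs had a share of 5.33% and the third with the most 2.29%, and in young section 1 these were 1.35 and 2.26%. The nuclear share went the other way in aged section 3, at 1.20 and 1.32%, and the rho between both shares was 0.25, −0.15, 0.30 and −0.064 in young and 0.17, −0.36, 0.057 and 0.18 in aged sections. The part of depth in the difference between ages was not tested. Of the 15 marker lists, 2 had shares of UMIs that did not overlap between ages in whole sections. The endothelium list took 0.0608 to 0.0821% in young and 0.0445 to 0.0600% in aged sections. The neutrophil list, 5 genes with few UMIs, took 0.0003 to 0.000619% in young and 0.000691 to 0.00147% in aged sections. The part of both lists in the difference between ages was not tested.

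The tenth of spots with the highest share held 11.9 to 30.3% of a section's mitochondrially encoded UMIs, from 2.38 to 10.8% of all its UMIs. Their spread over regions (described below) differed between sections, with the leading region holding 27.6 to 83.1% of them. The lower values were in young section 4 (R5), aged section 4 (R5, 29.3%) and young section 2 (R3, 39.7%). In young section 1, 40 of 53 such spots belonged to region R4, and in aged section 2, 54 of 65 belonged to region R5, with median depths of 17618 and 2643 UMIs against 18993 and 14206 in the other spots. The highest spots of aged section 2 were thus shallow, and those of young section 1 nearly as deep as the rest. On the rim of the section lay 24.5 to 72.2% of them, against 15.6 to 33.1% of all spots.

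**Figure D3:**
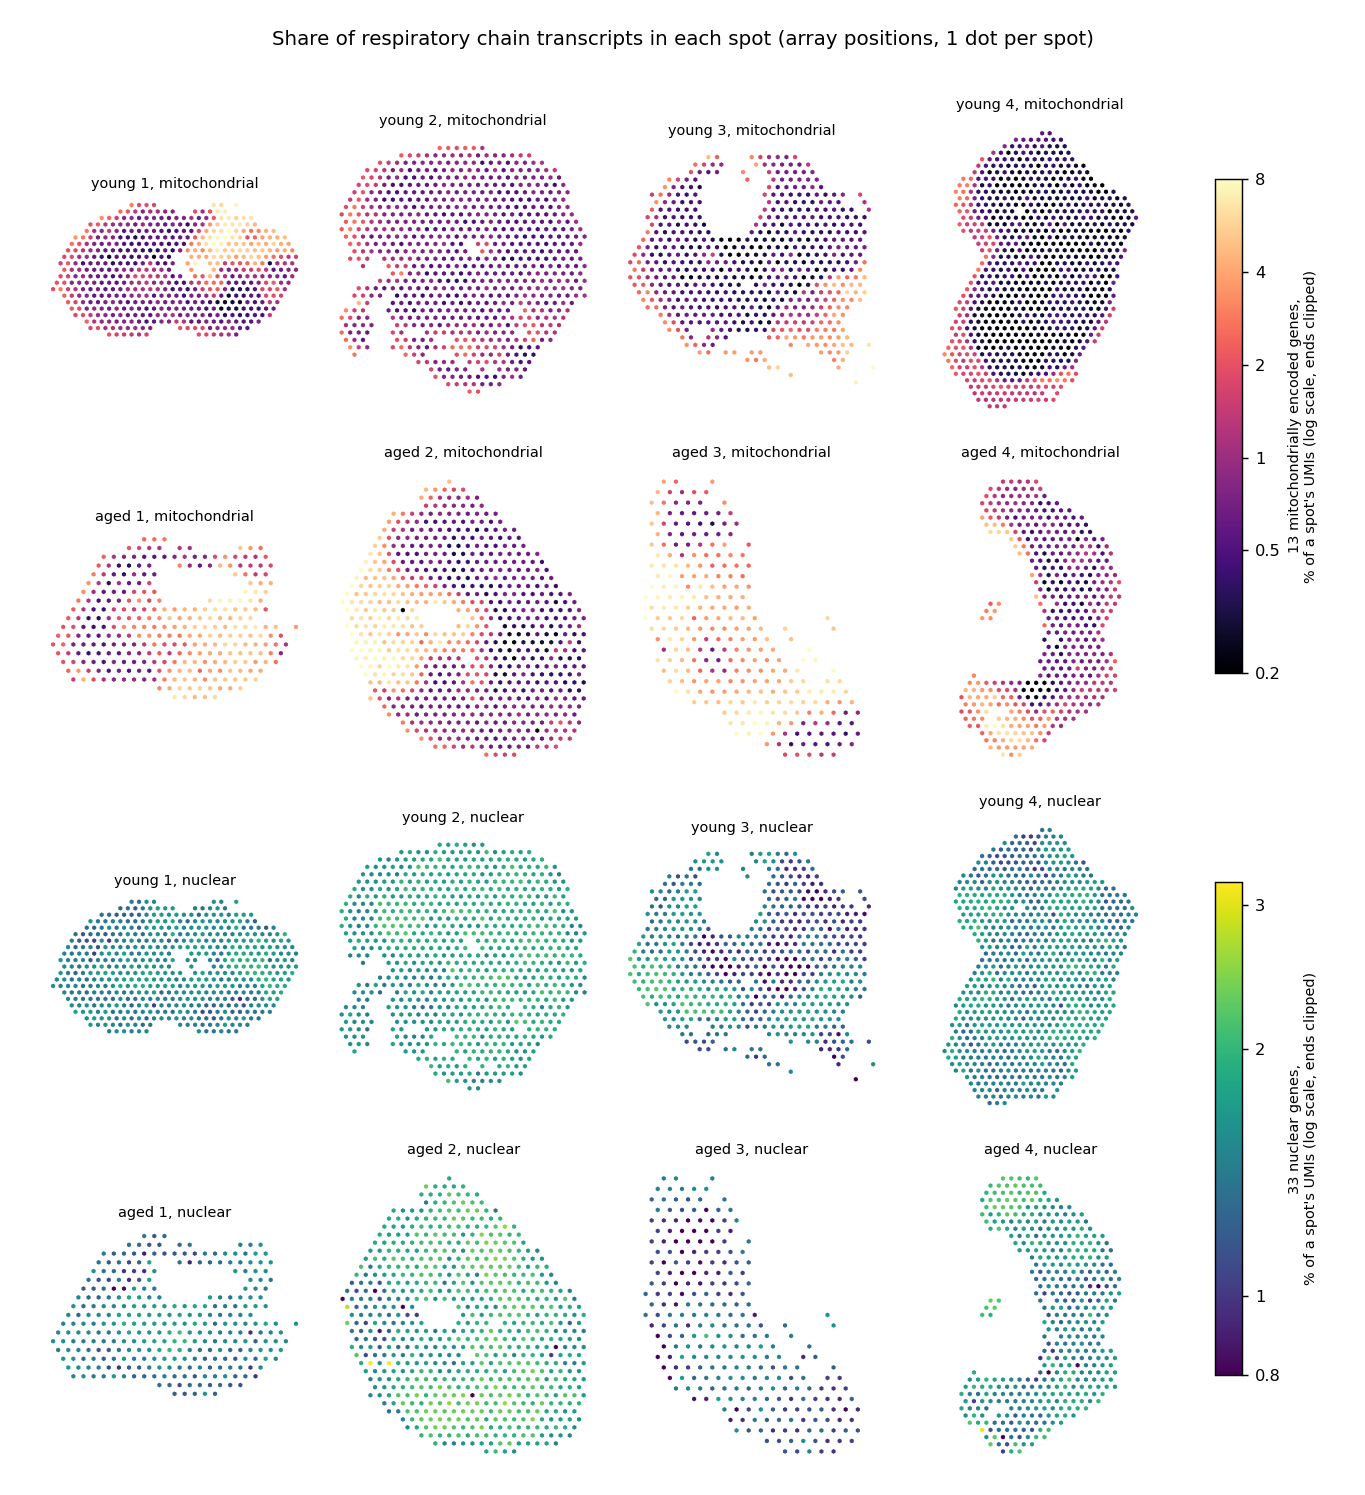
Maps of the 8 sections by array position, 1 dot per spot, coloured by the share of the spot's UMIs (%, log scale) from the 13 mitochondrially encoded genes (upper 2 rows) and the 33 nuclear genes (lower 2 rows). The mitochondrially encoded share forms bright patches at edges and in a part of young section 1 and aged section 2, with section medians of 0.337 to 3.86%, while the nuclear share is more even.

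Among 6547 genes seen in at least 20% of the spots of every section, those whose level followed the mitochondrially encoded share most closely all encode cytosolic ribosomal proteins. By the median of the Spearman rho within the 8 sections they were Rpl39 (0.62), Rps29 (0.56), Rplp1 (0.55), Rps27 (0.54) and Rpl41 (0.53). Each was positive in 8 of 8 sections, with 0.37 to 0.77 for Rpl39. Their log2 fold changes between ages were 0.079 to 0.30, none called by edgeR. The nuclear share was followed by Fdx1 (0.58), Cyp11a1 (0.56), Scarb1 (0.51), Prdx1 (0.51) and Uqcrq (0.46). Fdx1 (ferredoxin) and Cyp11a1 (the cholesterol side-chain cleavage enzyme) act in mitochondrial steroid synthesis, Scarb1 takes up lipoprotein cholesterol, Prdx1 is a peroxidase and Uqcrq is a further complex III subunit. In aged section 3 the rho was negative for Fdx1, Cyp11a1 and Scarb1 (−0.19, −0.33 and −0.33), and positive in the other 7.

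Marker and pathway lists were set against both groups by the same rho within sections. Here both values were divided by the UMIs of the spot that belong to neither the group nor the list, so these rho differ in measure from those above. The nuclear share went with the corpus luteum list (median rho 0.60, positive in 7 of 8 sections, −0.27 in aged section 3) and with the theca and interstitial list (0.47, 7 of 8). It went with the other nuclear subunit lists in 8 of 8 sections, at medians of 0.65 for complex I, 0.59 for complexes III and IV and 0.66 for ATP synthase, and with the assembly factors at 0.40. The mitochondrially encoded share had medians of 0.010 with the corpus luteum list and 0.15 with the other complex I genes, and was positive in 8 of 8 sections only with the erythrocyte list (0.042 to 0.47), which took 0.00331 to 0.0352% of UMIs of a section. It was negative in 8 of 8 with the stromal fibroblast (−0.17), smooth muscle (−0.19), endothelium (−0.23), macrophage (−0.16) and T and NK cell lists (−0.10), and with the genes of mitophagy and quality control (−0.29). Both values of a pair are divided by the same UMIs, across spots of the same library, and all are given as descriptions without a test.

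Regions were formed by clustering spots on expression with all 46 members left out, so that the members could be compared between them. Regions with 15 or more spots in 6 or more sections, 4 of 13, were tested against the rest of their own section, by sign flips over sections for the shares and by edgeR with the section as a factor for single genes.

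In R1 (1199 spots, led by Coro2a, Ccl21a and Rergl, with no gene of a marker list among its 10 leading ones) mitochondrially encoded transcripts were lower than in the rest of the section in each of 7 sections. They took 0.917, 0.701, 0.541 and 0.304% of UMIs in R1 of young sections 1 to 4 and 1.56, 1.16 and 0.609% in aged sections 1, 2 and 4, against a mean of 1.54 ± 0.683% in the rest (SD, n = 7 sections). The mean log2 difference was −0.94 (−1.30 to −0.35; exact sign-flip permutation test, p = 0.0156, the smallest that 7 sections allow, adjusted over 8 tests 0.0625), which misses the threshold. In edgeR, 12 of 12 tested mitochondrially encoded genes were called lower, beside 18.4% of all genes lower and 17.4% higher, with a median of −1.03 on the log2 scale. The extremes were mt-Co1 (−1.17 ± 0.14, adjusted p = 4.23e-05) and mt-Nd3 (−0.84 ± 0.18, adjusted p = 0.00255) in edgeR, and mt-Nd6 did not pass the filter. Of the nuclear members 10 of 33 were called lower in edgeR, 5 of complex IV, 4 of complex I and Uqcrb of complex III, with a median of −0.17 over all 33, and their number was 4 without young section 3. Among them edgeR gave Cox5a (−0.54 ± 0.083, adjusted p = 0.000264), which stabilises cytochrome c oxidase, Uqcrb (−0.45 ± 0.089, adjusted p = 0.00156) and Ndufa1 (−0.44 ± 0.14, adjusted p = 0.0256).

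In R3 (650 spots, led by Nap1l5, Nppc, Inhbb, Ihh and Fst, with 3 of its 10 leading genes on the granulosa list) the members were called lower about as often as other genes. Unlike other genes, none of them was called higher. mt-Nd2 (−0.57 ± 0.22, adjusted p = 0.0481), mt-Nd4l (−0.84 ± 0.26, adjusted p = 0.0172) and mt-Nd5 (−0.65 ± 0.18, adjusted p = 0.00862) were called lower by edgeR, whereas mt-Co1 (0.070), mt-Co3 (0.053) and mt-Cytb (0.014) were near 0. The 3 of 12 tested stand beside 24.3% of all genes lower in R3. Called higher were 0 of these 12 and 0 of the 33 nuclear members, beside 22.8% of all genes. The summed share was higher in 4 of 8 sections and lower in the other 4 (mean log2 −0.037, exact sign-flip permutation test, adjusted p = 0.977). Of the nuclear members 8 of 33 were called lower, or close to the share over all genes, and in edgeR these included both subunits of the catalytic head of complex II, Sdhb (−0.46 ± 0.086, adjusted p = 0.00067) and Sdha (−0.26 ± 0.095, adjusted p = 0.0355). The others were Ndufa1, Ndufs7, Uqcrfs1, Cox5a, Cox6a1 and Cox6b1, at −0.50 to −0.30. The nuclear share was lower in 7 of 8 sections (mean log2 −0.12, exact sign-flip permutation test, adjusted p = 0.212). It passed only without aged section 3, the section where R3 was the higher (exact sign-flip permutation test, adjusted p = 0.0417). That left the smallest unadjusted p that 7 sections allow, 0.0156, as for the mitochondrially encoded share in R1 and the nuclear share in R7. The adjusted p thus depends on how many of the 8 tests share this floor.

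In R7 (199 spots, led by Upk3b, Krt19, Lhx9 and Muc16, with 4 of its 10 leading genes on the surface epithelium list) mitochondrially encoded transcripts were above the rest in most sections, and the nuclear share was below it in every section that held the region. The mitochondrially encoded share of R7 was 1.80, 1.40, 2.15 and 1.55% in young sections 1 to 4 and 2.04, 2.44 and 1.70% in aged sections 1, 2 and 4, higher than the rest in 5 of 7 (mean log2 0.57, exact sign-flip permutation test, adjusted p = 0.188). In edgeR 6 of 12 tested genes were called higher, mt-Co1, mt-Co2, mt-Co3, mt-Cytb, mt-Atp6 and mt-Nd3, beside 9.09% of all genes, with mt-Co3 (0.76 ± 0.17, adjusted p = 0.00277) the largest, and without young section 3 only 1 was. The nuclear share was lower in 7 of 7 sections (mean log2 −0.16; exact sign-flip permutation test, p = 0.0156, adjusted 0.0625). Of single nuclear members 7 of 33 were called lower in edgeR, beside 8.92% of all genes, among them Cox5a (−0.53 ± 0.093, adjusted p = 0.000411), Uqcrb (−0.43 ± 0.090, adjusted p = 0.00215) and Cox6a1 (−0.28 ± 0.089, adjusted p = 0.0371). Of the spots of R7, 69.3% lay on the rim of the section. Away from the rim, an alternative chosen after seeing the data, only young section 4 kept 15 or more spots of R7, and there the log2 difference of the mitochondrially encoded share was 1.48. In R2 (717 spots, led by Gm31814, S100a4 and Cdkn2b) edgeR called no member, beside 2.26% of all genes higher and 2.24% lower. At an unadjusted p under 0.05 in edgeR stood mt-Nd5 and 1 nuclear member there, beside 2413 of 12585 genes tested.

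A pair of further regions stood apart but lacked the sections for a test. R5 (273 spots, led by BC048679, Plet1, Muc1 and Pax8, left unnamed, with a median of only 4304 UMIs per spot) had a mitochondrially encoded share of 1.70% in young section 4 and 5.05, 5.96, 6.64 and 2.71% in aged sections 1 to 4, above the rest of the section in 5 of 5. R6 (246 spots, led by Bhmt, Hsd17b7 and Cst8) had a nuclear share of 1.82 and 1.98% in young sections 1 and 3 and 1.67 and 2.09% in aged sections 1 and 4, above the rest in 4 of 4. R5 reached 15 spots in 1 young and 4 aged sections. The age difference was therefore also taken without it, and the log2 difference of the mitochondrially encoded share was then 0.78.

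**Figure D4:**
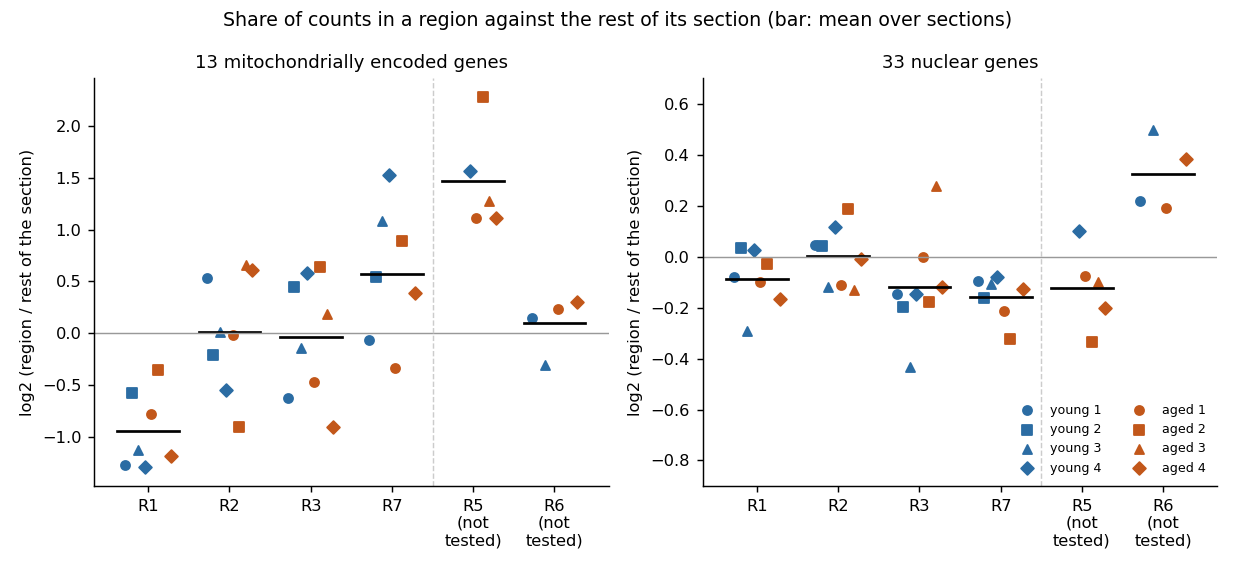
Log2 ratio of the share of UMIs in a region to that in the rest of its section, for the 13 mitochondrially encoded genes (left) and the 33 nuclear genes (right), with 1 symbol per section and a bar at the mean. On the left all 7 sections lie below 0 in R1 (mean −0.94), and on the right all 7 lie below 0 in R7 (mean −0.16); the scales of both sides differ.

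At the rim of a section, mitochondrially encoded transcripts were higher than in its interior in every section, in both ages. Rim spots were those with fewer than 6 neighbours in the section, the edges of holes included (1010 spots, 85 to 184 per section). Their share was 2.12, 1.35, 1.64 and 1.03% at the rim of young sections 1 to 4, against 1.79, 0.836, 0.875 and 0.518% in the interior. In aged sections 1 to 4 it was 2.82, 2.10, 3.24 and 1.82% at the rim and 2.39, 1.24, 2.84 and 1.13% in the interior. Rim and interior of the same section differed in 8 of 8, least in aged section 3 and most in young section 4. The mean log2 difference was 0.59, or 1.51-fold (0.19 to 1.00; exact sign-flip permutation test, p = 0.00781, the smallest that 8 sections allow, adjusted over both shares 0.0156). It was 0.71 in young and 0.47 in aged sections, a difference that did not pass (exact permutation test, p = 0.286). The nuclear share was higher at the rim in 2 of 8 sections (mean log2 −0.063, exact sign-flip permutation test, adjusted p = 0.0547).

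By gene, an edgeR fit with the section as a factor was added after the shares had been seen. It called 10 of 12 tested mitochondrially encoded genes higher at the rim, beside 2.02% of all genes higher and 1.33% lower. Of the nuclear members it called 0 of 33 in either direction. At an unadjusted p under 0.05 in edgeR stood 6 of these 33, beside 2452 of 12119 genes tested. The largest was mt-Nd3 (0.76 ± 0.13, adjusted p = 0.00704), followed by mt-Atp6 (0.67 ± 0.11, adjusted p = 0.00614) and mt-Co3 (0.65 ± 0.098, adjusted p = 0.00296). mt-Nd4l (0.44 ± 0.14, adjusted p = 0.0948) and mt-Atp8 (0.17 ± 0.25, adjusted p = 0.78), the 2 short genes shown above, were not called in edgeR, and mt-Nd6 was not tested. Nuclear members ranged from −0.24 to 0.066, with 30 of 33 below 0. Of the 5 ribosomal protein genes that followed the mitochondrially encoded share, Rps27 (0.58 ± 0.11, adjusted p = 0.00894) and Rplp1 (0.34 ± 0.087, adjusted p = 0.0461) were also called higher at the rim by edgeR. These 5 were picked for following that share across the same spots, so their calls are no independent result. The calls for mitochondrially encoded genes numbered 10 as well without aged section 3 and without both sections of area 3.

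In most sections the gradient went beyond the outermost spots. In young section 4 the share was 1.03% at the rim and 0.848, 0.651, 0.530 and 0.282% at 1, 2, 3 and 4 or more steps inward, and in aged section 2 it was 2.10, 1.63, 1.36, 1.17 and 0.879%. The shares of young section 2 and aged sections 1 and 4 also fell at every step. In 3 sections they did not, young section 1 (2.12, 1.84, 1.89, 1.97 and 1.53%), young section 3 (1.64, 1.16, 0.787, 0.832 and 0.592%) and aged section 3 (3.24, 2.50, 3.17, 3.07 and 2.66%, the last from 13 spots). The difference stood within regions too, at a mean log2 of 0.65 in R1 and 0.52 in R3, each positive in 7 of 7 sections with at least 10 rim and 10 interior spots. In R2 it was 0.49 and positive in 3 of 4 such sections (−0.14 to 1.04), and in R7 it was 0.54 in the single section. Rim spots differed from the interior in other ways: the surface epithelium list took 0.0172 to 0.0948% of UMIs at the rim and 0.0112 to 0.0298% inside, with no gene of the list at 0, and the oviduct epithelium list 0.00447 to 0.0661 and 0.00268 to 0.0102%, each higher at the rim in 8 of 8. The corpus luteum list was higher at the rim in 1 of 8 sections (medians of 2.55% at the rim and 3.18% inside), the theca and interstitial list in 2, the macrophage list in 2, the T and NK cell list in 0 and the stromal fibroblast list in 7. R7 held 13.7% of rim and 1.92% of interior spots, and R5 11.6 and 4.90%. Without R5 and R7 the rim was still higher, by 0.51 on the log2 scale (exact sign-flip permutation test, adjusted p = 0.0156). Median UMIs were higher at the rim than inside in young sections 1 to 3 and aged section 1, and lower in the others, while the share was higher in 8 of 8. The part of these lists in the rim difference was not tested beyond this.

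**Figure D5:**
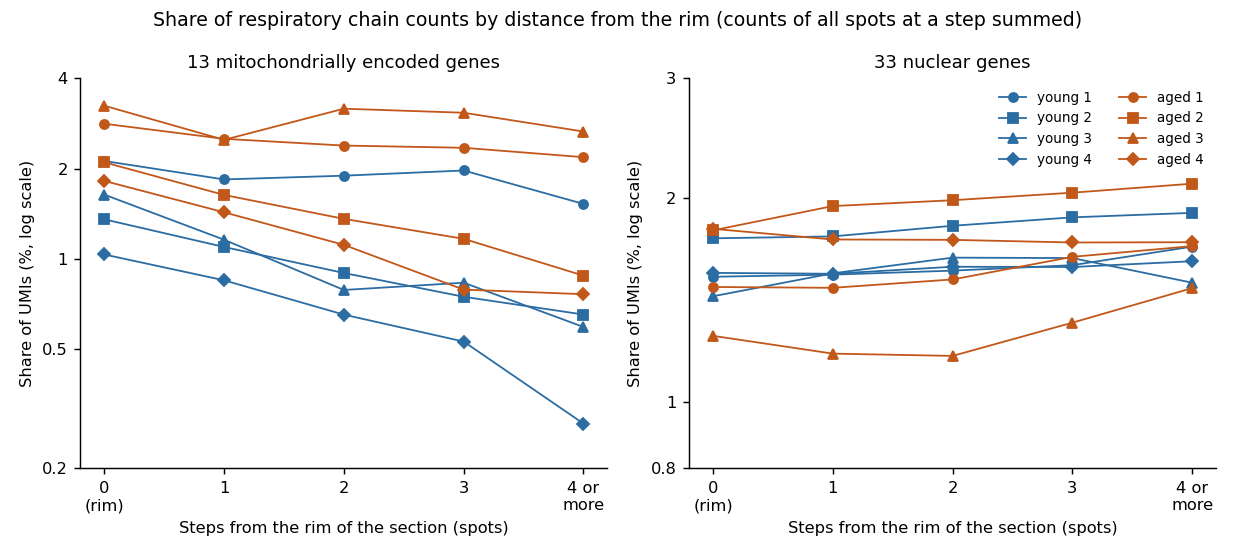
Share of UMIs (%, log scale) from the 13 mitochondrially encoded genes (left) and the 33 nuclear genes (right) by the number of steps from the rim of the section, with 1 line per section and counts summed over the spots at each step. The left lines start above their values at 3 steps and at their inner ends in all 8 sections, the inner ends of aged sections 3 and 4 resting on 13 and 19 spots (1.03 and 0.282% in young section 4), and the right lines cover a narrower range.

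Within each tested region the mitochondrially encoded share was again higher in aged sections on average, and again no difference passed. It was 0.616 ± 0.259% in young and 1.11 ± 0.477% in aged sections in R1 (SD, n = 4 young and 3 aged; log2 difference 0.86), 1.26 ± 0.993% in young and 2.48 ± 1.47% in aged in R2 (1.09) and 1.11 ± 0.240% in young and 1.97 ± 1.00% in aged in R3 (0.67; n = 4 per age in both). In R7 it was 1.73 ± 0.327% in young and 2.06 ± 0.372% in aged (log2 difference 0.26). Exact permutation tests gave an adjusted p of 0.457 in all 4, and for the nuclear share of 0.457 to 0.971. In R1 and R7, with 4 young and 3 aged sections, this test cannot give a p below 0.0571, so it could not pass. In R2 and R3 the smallest p is 0.0286, and adjustment over both shares and all 4 regions puts it above 0.05 as well. Whether the age difference of a region differed from that of the rest of its section was tested as well, and did not pass for either share (exact permutation tests, adjusted p 0.457 to 0.857). These tests have the same limits and could not pass either. By gene, edgeR called no member between ages in any region, beside 0% of all genes in R1, 0% in R2, 0.0102% in R3 and 0% in R7. At an unadjusted p under 0.05 stood 8 of 12 tested mitochondrially encoded genes in R1, 1 of 11 in R2, 7 of 11 in R3 and 0 of 10 in R7, and no nuclear member in any of them. Of all genes tested, 476 of 12244 stood under that p in R1, 145 of 8572 in R2, 477 of 9773 in R3 and 411 of 8289 in R7. Median log2 fold changes of the mitochondrially encoded genes were 1.14, 1.02, 1.04 and 0.26 in R1, R2, R3 and R7, and those of the nuclear members 0.13, −0.026, 0.17 and 0.0088.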

How the data were processed

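Per the labels' protocols, 10 µm frozen sections were permeabilised for 18 minutes on Visium slides, and per the submitters' processing notes the deposited UMI counts per gene and spot were made with Space Ranger 1.2.1 on mm10. The sources used here name no annotation, filter or strand setting. The deposited position tables (array and pixel positions) held 4263 spots over tissue, of which 4191 had counts. Of 2204 array positions in use, 1358 served in more than 1 area, so cell barcodes repeat between areas and spots were keyed by area.

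The 4 areas were split into 8 sections at the widest gap between spots, and each section took its age from the side the labels name. Labels tie sections to separate animals. Counts were summed per section, or per section and region, and no spot was used as a replicate. Genes were tested with edgeR 4.0.16 (quasi-likelihood test, TMM, filterByExpr, Benjamini-Hochberg at 0.05 over all genes, R 4.3.3, limma 3.58.1). The fit was also run on simulated counts with the same dispersion for every gene, which need not match that of the members. Shares were tested with exact permutation tests (Python 3.11.15, numpy 2.4.6, scipy 1.17.1), two-sided throughout. Of spots with 500 UMIs or more, all but 18 of the total, regions were Leiden clusters (scanpy 1.11.5, leidenalg 0.10.2, resolution 0.4) without the members. DESeq2 1.42.0, k-means (scikit-learn 1.9.0) and other settings served as alternatives. Doublets have no meaning for spots and were not called. SDs are spreads between sections and SEs are derived from the fits over sections, so neither covers counting error alone.

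The labels place both sections of an area in 1 library. Their deviations from the age means correlated at 0.0036, 0.17, −0.22 and 0.21 in areas 1 to 4, and the area was a block only in an alternative.

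Values in every section are printed for the 13 mitochondrially encoded members and for the nuclear members with the largest and smallest fold change of each complex, and for other pathway lists the extremes are named. Likeness was ranked over genes seen in 20% or more of the spots of every section. Members and lists were chosen with earlier results of these data known.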

Additional observations from a re-analysis of the deposited data

Results flagged for a closer look

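Each of these values lay far from the other 3 sections of its age, with a gap, relative to the range of the group, above Dixon's 95% critical value for 4 samples. Of 132 groups of 4 looked at, 4 held such a value, and chance alone gives about 1 in 20.

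The nuclear share of young section 2 was 1.82% of UMIs, against 1.54 to 1.58% in the other young sections. Its nuclear complex I share was 0.490%, against 0.440 to 0.442%. Uqcrc2, a core subunit of complex III, stood at 177 CPM in aged section 3, against 131 to 138 CPM in the other aged sections. mt-Co2 took 8.60% of the mitochondrially encoded counts of aged section 4, against 9.47 to 9.61% in the other 3.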

How the results depend on the processing

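The mitochondrially encoded share was higher in aged sections under every alternative tried, with a log2 difference of 0.60 to 1.16 when a section or an area was left out, and no member was called between ages under any of them. The higher share at the rim passed its test in every alternative, at 0.53 to 0.65 when a section was left out. With the capture area as a replicate block, the mitochondrially encoded share differed by 0.87 with p = 0.125 in paired sign flips, the smallest exact permutation p that 4 pairs allow, and edgeR called 0 members.

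Values near 0 changed sign. The nuclear share between ages (−0.016) was 0.091 in regions R2 and R3 alone and −0.12 to 0.10 when a section or area was left out. At a clustering resolution of 0.6, R2 differed from the rest by −0.064 (mitochondrially encoded) and −0.059 (nuclear) and R3 by 0.34 (mitochondrially encoded). Away from the rim, R2 differed by −0.070 and −0.024. When a section was left out, R2 ranged from −0.078 to 0.15 and from −0.023 to 0.022, and the mitochondrially encoded share in R3 from −0.13 to 0.087. The nuclear share in R3 ranged from −0.17 to −0.073 and passed without aged section 3 (exact permutation test, adjusted p = 0.0417). There the unadjusted p was the smallest that 7 sections allow. At the rim the nuclear share ranged from −0.080 to −0.047 and passed without aged section 4 (exact permutation test, adjusted p = 0.0313). As a part of mitochondrially encoded counts, mt-Nd4l ranged from −0.018 to 0.34, mt-Nd5 from −0.14 to 0.17, mt-Nd6 from −0.33 to 0.27 and mt-Atp6 from −0.014 to 0.12.

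Nuclear fold changes between ages also crossed 0 when a section or area was left out: Ndufa1 −0.24 to 0.53, Ndufs7 −0.37 to 0.056, Sdhb −0.029 to 0.19, Sdha −0.11 to 0.11, Uqcrfs1 −0.025 to 0.17, Cyc1 −0.16 to 0.043, Cox7b −0.12 to 0.65 and Cox5a −0.34 to 0.16. Without young section 3, the only section of area 3 with enough spots of either region, 4 nuclear members were called lower in R1 in place of 10, and 1 mitochondrially encoded gene higher in R7 in place of 6. For the changes above the cause was not tested, beyond the smaller number of sections or spots. Settings that use the rim, R2 and R3, or leave out R5, R7, or aged section 3 and area 3 by gene, were chosen after seeing the data. Few UMIs limit mt-Nd6, mt-Atp8 and mt-Nd4l.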

Other observations

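The other nuclear genes of oxidative phosphorylation mostly lay slightly below the interior at the rim of a section, as the nuclear members did. In edgeR's fit of rim against interior, 18 of 22 other complex I genes were below 0 and 1 was called lower, with a median log2 difference of −0.048. Of nuclear ATP synthase genes 15 of 18 were below 0 with none called and a median of −0.064, and of citric acid cycle genes 11 of 13 with none called and a median of −0.070. Of 37 assembly factors tested, 3 were called lower. Genes that maintain and express mitochondrial DNA did not lean to one side, with 15 of 25 above 0, none called and a median of 0.016. Over all 12119 genes tested the median was −0.0030, with 1.33% called lower and 2.02% called higher. Of 86 genes whose symbol starts with Rpl or Rps and a number, 5 were called higher at the rim and 0 lower, with a median of 0.18. The mitochondrially encoded genes were thus not alone in being higher there. This set was taken by symbol alone, which leaves out Rplp1 and may take in genes that do not encode ribosomal proteins.

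Regions seen in few sections give values without a test. R4 (296 spots, led by Spp1, Hsd11b1 and Akr1c18) had a mitochondrially encoded share of 3.38% in young section 1, 0.718% in young section 2 and 2.57% in aged section 3. The spots of R4 thus held both some of the higher and some of the lower shares of a young section, with nuclear shares of 1.74, 1.92 and 1.29%. R13 (27 spots in all, led by Dynlrb2, Tmem212 and Foxj1, genes of motile cilia, with 3 of its 10 leading genes on the oviduct epithelium list) had 1.76% in young section 2, against 0.951% in the rest of that section. R9 (134 spots, led by Maob and Cd28) had 0.533% in young section 4 and 0.696% in aged section 4, and R12 (68 spots) had 0.408% in young section 4. R8 (188 spots, led by Ibsp and Kcnj16) had 1.13% in young section 2 and 1.60% in aged section 3. R10, seen in young section 4, had 0.776%, and R11, seen in aged section 4, had 1.38%.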
